A study of Mus musculus with 6 samples.

Results

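The 10 genes described here encode enzymes, an enzyme enhancer and a chaperone that help turn a newly made procollagen chain into fibre-forming collagen: Pcolce, Bmp1, Adamts2, Serpinh1, P4ha1, P4ha2, P3h1, Plod1, Plod2 and Plod3. They were taken by symbol from the 20637 genes listed for each library, and all 10 were found and passed the filter on low values. The family was selected on earlier results for the d/d against f/f contrast in these same FPKM values, so its differences between the groups are given as descriptions. The study profiled polyA RNA from the whole uterus of female mice on postnatal day 21. Its 3 control libraries carry Nat10 f/f, in which both alleles of the RNA cytidine acetyltransferase gene Nat10 are floxed, and its 3 others are Nat10 d/d, in which Nat10 is deleted. No treatment is named, and neither the Cre driver nor the cells with the deletion are given in the sources used here. The labels do not say that the libraries come from separate animals, so p-values measure only the spread between these libraries, which may be technical.

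Collagen chains are hydroxylated on proline and lysine as they enter the endoplasmic reticulum (ER). Hydroxyproline stabilises the triple helix, and hydroxylysine carries sugars and is used in cross-links between collagen molecules. The chaperone HSP47 binds the folded helix until it leaves the ER, and proteinases outside the cell then remove both propeptides so that fibrils can form. In the uterus, fibrillar collagen is laid down mainly by fibroblasts of the endometrial stroma and between the muscle layers of the myometrium.

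The values, whose unit no file header names, were read as FPKM, which scale reads by gene length and sequencing depth, so that levels may be compared between genes. Between 15431 and 15680 genes had a value above 0 per library. Sequencing depth is unknown in absolute terms, and its estimate from the lowest values differed by at most 1.26 times between libraries. Nat10 itself was listed at 13.2, 16.4 and 9.95 in f/f replicates 1, 2 and 3 and at 5.57, 5.23 and 5.53 in d/d replicates 1, 2 and 3, without overlap. The uterine genes Hoxa10, Hoxa11, Esr1, Pgr, Hand2 and Emx2 were present in all 6 libraries, with summed values of 377 to 513. Of these, Pgr was lower in d/d libraries without overlap, as were 4.6% of all genes tested. It had 73.8, 62.2 and 60.3 in controls and 35.3, 25.4 and 32.6 in d/d libraries (log2 change -1.06; limma adjusted p 0.669). The d/d libraries did not stand together. Replicate 2 had a summed value of 160 over 8 proliferation genes, against 14.8 and 8.09 in replicates 1 and 3 and 17.4 to 70.4 in controls.

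In d/d uteri the collagen processing genes took values on both sides of the controls. In d/d replicate 1, 9 of the 10 lay below every control, Plod2 being the exception, and in d/d replicate 3 another 9 did so, Plod1 being the exception. In d/d replicate 2, 8 of the 10 lay above every control, and Adamts2 and Plod1 lay within the control range. The shares over all 12640 genes tested were 31.9% below every control in d/d replicate 1, 25.5% below in d/d replicate 3 and 38.4% above in d/d replicate 2. Both orders held together in 7 of the 10 genes, with d/d replicates 1 and 3 below and replicate 2 above every control, against 6.77% of all genes tested. After quantile normalization or upper-quartile scaling the count above every control in d/d replicate 2 was 5 rather than 8, with Bmp1, Plod2 and Plod3 no longer above. The shares of all genes tested were then 31.9% and 33.3%. Both orders together then held in 5 genes rather than 7, against 6.28% and 7.37% of all genes tested. The counts below were 9 or 10 in d/d replicate 1 and 9 in d/d replicate 3 under each scaling. The shares of all genes tested were 32.6% to 35.6% and 28.2% to 30.8%. The contrast between the groups was known when the genes were chosen, so nothing is read from these counts against the shares.

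No gene of the 10 was called between the groups by limma at an adjusted p of 0.05, and 0.0% of all genes tested were called. At an unadjusted p under 0.05 there were 0 of the 10, against 4.98% of genes tested, with Adamts2 closest at an unadjusted p of 0.0502. This count was 8 without d/d replicate 2 (13.6% of genes tested) and 9 with array quality weights (29.5%), and 0 or 1 under each other setting tried. The groups overlapped in all 10, where 4.6% of genes tested were lower and 6.12% higher without overlap. The mean change was below 0 for all 10, with a median of -0.28 on the log2 scale, against 43.4% of genes below 0 and a median of 0.03 over all genes tested. The spread was wider among d/d than among control libraries for all 10, and for 9342 of the 12640 genes tested. The ratio of their standard deviations on the log2 scale had a median of 3.86, from 1.43 for Plod2 to 11.4 for Adamts2, and the median over all genes tested was 1.73.

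**Figure D1:**
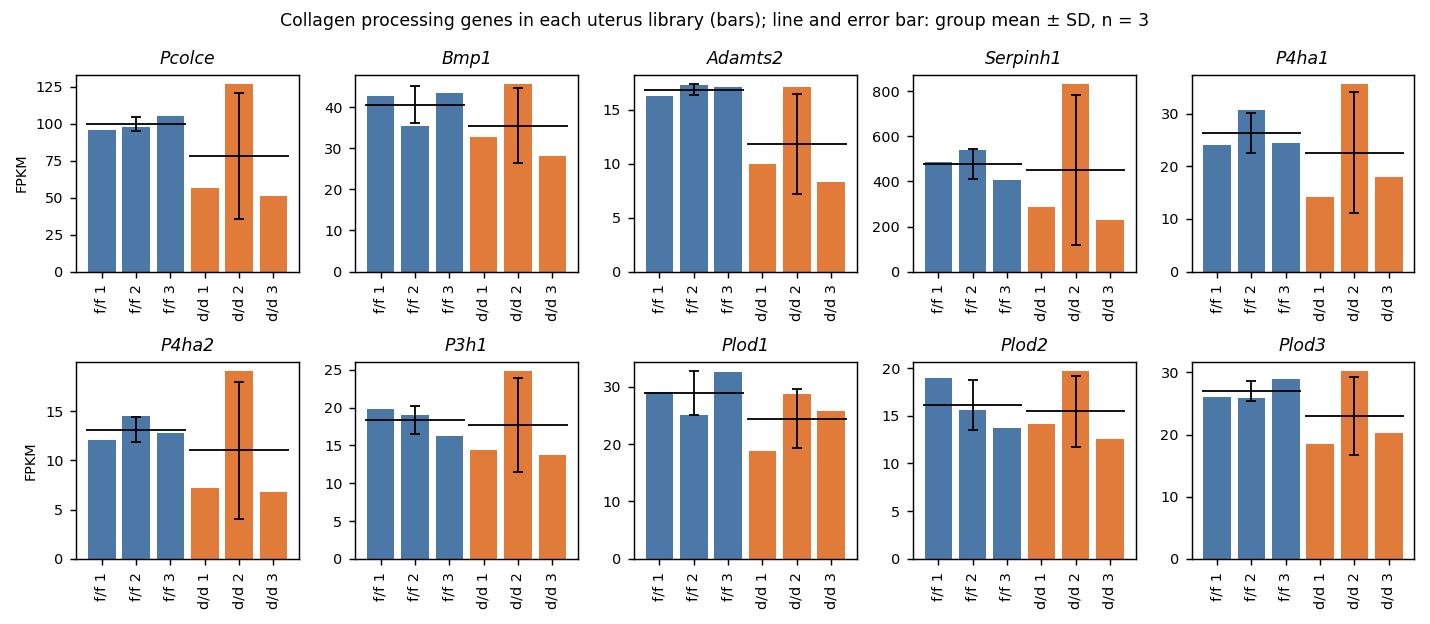
FPKM of each of the 10 genes (vertical axes, each from 0) in the 3 f/f libraries (blue bars) and the 3 d/d libraries (orange bars), with the group mean as a line and its SD as an error bar (n = 3). d/d replicate 2 is the highest of the 6 libraries for 8 genes (30.1% of all genes tested), and d/d replicates 1 and 3 are both below every control for 8 (14.4%). After quantile normalization or upper-quartile scaling, d/d replicate 2 is the highest for 5 genes (25.1% and 26.8%).

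Prolyl 4-hydroxylase is a tetramer whose catalytic alpha subunit is encoded by P4ha1 or P4ha2. P4ha1 (ENSMUSG00000019916, mm10 chr10:59323296-59373304, plus strand) had 23.99, 30.7 and 24.4 FPKM in f/f replicates 1, 2 and 3 and 14.1, 35.7 and 17.9 in d/d replicates 1, 2 and 3. Its d/d libraries thus enclosed the controls, with replicate 2 highest and the other 2 lowest. Limma put the log2 change at -0.31 (SE 0.31), with an adjusted p of 0.946. P4ha2 (ENSMUSG00000018906, chr11:54100095-54131665, plus strand) had 12.0, 14.5 and 12.8 FPKM in controls and 7.17, 19.0 and 6.78 in d/d libraries, in the same order. Its d/d values spanned 2.81 times, against 1.21 times in controls, and limma gave a log2 change of -0.38 (SE 0.34), with an adjusted p of 0.943. P4ha1 made up 65.6% to 67.9% of their summed FPKM in controls and 66.3%, 65.2% and 72.5% in d/d replicates 1, 2 and 3, so only d/d replicate 3 stood clearly apart in the balance of the subunits.

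The partner subunit, protein disulphide isomerase, is encoded by P4hb and also folds other proteins. P4hb had 221, 229.5 and 200.3 FPKM in controls and 199, 283 and 176 in d/d libraries, so d/d replicate 1 lay only just below the lowest control. The amount of P4hb for each unit of P4ha1 and P4ha2 was 5.07 to 6.13 in controls and 9.35, 5.17 and 7.14 in d/d replicates 1, 2 and 3. This ratio was above every control in the d/d libraries in which the alpha subunits were low.

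The DNA before a RefSeq start of both alpha subunit genes and of Serpinh1 is shown because their 3 products act on the same chains and their values took the same order, with d/d replicate 2 highest and d/d replicates 1 and 3 below every control. That order was seen in 7 of the 10 genes, so it does not single out these 3. Each line holds the 250 bases before the RefSeq start (build GRCm38.p6, which is mm10), 5′ to 3′ on the gene's strand, none of it in an annotated exon. For P4ha2 this start lies downstream of the GENCODE gene start, so its window falls inside the annotated gene, as do those of Pcolce and the second of P3h1 counted below. Capitals mark ACGTG on either strand, the core of the hypoxia response element, to which hypoxia-inducible factors bind.
P4ha1, chr10:59323046-59323295, plus strand: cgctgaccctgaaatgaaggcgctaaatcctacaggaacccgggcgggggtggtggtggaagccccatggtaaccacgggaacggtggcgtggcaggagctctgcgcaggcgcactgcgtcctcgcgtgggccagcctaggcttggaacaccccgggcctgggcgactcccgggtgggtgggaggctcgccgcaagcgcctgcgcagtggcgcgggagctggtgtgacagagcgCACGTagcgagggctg
P4ha2, chr11:54100674-54100923, plus strand: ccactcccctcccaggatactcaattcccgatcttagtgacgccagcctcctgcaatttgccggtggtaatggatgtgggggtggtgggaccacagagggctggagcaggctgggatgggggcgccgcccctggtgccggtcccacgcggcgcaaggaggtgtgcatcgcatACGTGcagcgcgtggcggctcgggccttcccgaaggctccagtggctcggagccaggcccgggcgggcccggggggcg
Serpinh1, chr7:99353240-99353489, minus strand: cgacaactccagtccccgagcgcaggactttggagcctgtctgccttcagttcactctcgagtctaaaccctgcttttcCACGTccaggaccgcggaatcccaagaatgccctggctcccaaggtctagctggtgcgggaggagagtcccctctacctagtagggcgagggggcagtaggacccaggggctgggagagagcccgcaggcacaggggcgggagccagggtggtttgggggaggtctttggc

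Each of these windows held 1 match to ACGTG, beginning 16 bases before the start in P4ha1, 78 in P4ha2 and 171 in Serpinh1. RefSeq promoter windows were found for 8 of the 10 genes, with 2 for P3h1, and not for Bmp1 and Plod2. Over these 9 windows ACGTG occurred in 5, against 16.6% of all 32851 promoter windows of this length. No match was found in the windows of Plod1, Pcolce and Adamts2 or in the first of P3h1. The Plod1 window, not shown, was also free of annotated exons. The GC box GGGCGG occurred in 7 of the 9 and in 32.7% of all, the CCAAT box (CCAAT) in 3 and 33.8%, and the heat shock element GAANNTTC in 0 and 6.69%, all on both strands. The median GC content was 61.6% in the 9 windows and 52.4% in all. No motif searched contains another. The motifs were chosen after the expression values were seen, and a match shows letters only, not binding.

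Prolyl 3-hydroxylase, encoded by P3h1, modifies single prolines in a complex with the proteins of Crtap and Ppib. P3h1 (ENSMUSG00000028641, chr4:119232915-119248975, plus strand) had 19.8, 19.1 and 16.3 FPKM in controls and 14.4, 24.8 and 13.7 in d/d replicates 1, 2 and 3. As with the P4ha genes, d/d replicate 2 was the highest library and the other d/d libraries the lowest. The fitted log2 change in limma was -0.10 (SE 0.22), with an adjusted p of 0.984. Crtap, the scaffold of the complex, had 81.4, 74.3 and 64.5 FPKM in controls and 60.6, 89.9 and 56.0 in d/d libraries, in the same order. The ratio of Crtap to P3h1 stayed between 3.62 and 4.198 over the 6 libraries. Ppib, a proline isomerase that also serves other proteins, had 348, 341 and 308 FPKM in controls and 384, 453 and 277 in d/d libraries, so d/d replicate 1 was above every control.

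The lysyl hydroxylases differ in where on the chain they act, and the products of Plod2 and Plod3 are known for lysines of the telopeptides and for adding sugars, respectively. Plod1 (ENSMUSG00000019055, chr4:147909753-147936767, minus strand) had 29.1, 25.0 and 32.6 FPKM in controls and 18.7, 28.8 and 25.8 in d/d libraries. Only d/d replicate 1 left the control range. By limma the log2 change came to -0.25 (SE 0.18), with an adjusted p of 0.926. Plod2 (ENSMUSG00000032374, chr9:92542223-92608428, plus strand) had 19.0, 15.6 and 13.8 FPKM in controls and 14.2, 19.7 and 12.5 in d/d libraries, close to the control range throughout. It had the smallest log2 change of the 10, -0.07 (SE 0.19; limma adjusted p 0.986). Plod3 (ENSMUSG00000004846, chr5:136987019-136996648, plus strand) had 26.1, 26.0 and 28.9 FPKM in controls and 18.5, 30.2 and 20.2 in d/d libraries. Limma put the log2 change at -0.25 (SE 0.18), with an adjusted p of 0.926. Plod1 made up 37.6% to 43.3% of the summed FPKM of the family in controls and 36.5%, 36.6% and 44.1% in d/d replicates 1, 2 and 3, and Plod2 made up 18.3% to 25.6% and 27.6%, 25.0% and 21.4%. The annotated exons of Plod3 share 529 bases with Znhit1 on the other strand and those of Plod2 share 346 bases with Gm38391, and since the strand setting is not given, reads there cannot be told apart.

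HSP47, the collagen-specific chaperone encoded by Serpinh1, was the most abundant of the 10 transcripts and varied most among d/d libraries. Among controls Plod2 and P4ha1 had higher coefficients of variation, of 16.5% and 14.4% against 14.1% for Serpinh1. Serpinh1 (ENSMUSG00000070436, chr7:99345376-99353239, minus strand) had 488, 538 and 405 FPKM in controls and 286, 833 and 231 in d/d replicates 1, 2 and 3. The d/d values spanned 3.6 times and the control values 1.33 times. The controls lay between, at 84.9% to 113% of their mean, with d/d libraries at 60.0%, 175% and 48.5%. The means were 477 ± 67.3 (SD, n = 3) for f/f uteri and 449.9 ± 333 (SD, n = 3) for d/d uteri, a difference far smaller than the spread among d/d libraries. The fitted log2 change in limma was -0.31 (SE 0.44), with an adjusted p of 0.960.

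Outside the cell, the product of Adamts2 removes the amino-terminal propeptide, that of Bmp1 removes the carboxy-terminal one, and that of Pcolce enhances the latter reaction without being a proteinase. Pcolce (ENSMUSG00000029718, chr5:137605103-137613784, minus strand) had 95.9, 98.0 and 105 FPKM in controls and 56.6, 127 and 51.0 in d/d libraries. Controls were tight, with a coefficient of variation of 4.82% against 54.1% among d/d libraries, of which 2 lay far below and 1 above. By limma the log2 change came to -0.47 (SE 0.32), with an adjusted p of 0.924. Its exons share 112 bases with Fbxo24 and Gm36266. Bmp1 (ENSMUSG00000022098, chr14:70474558-70520234, minus strand) had 42.8, 35.5 and 43.6 FPKM in controls and 32.8, 45.7 and 28.1 in d/d libraries, a log2 change of -0.21 (SE 0.19; limma adjusted p 0.943). Adamts2 (ENSMUSG00000036545, chr11:50602084-50807573, plus strand) had 16.3, 17.3 and 17.1 FPKM in controls and 10.01, 17.1 and 8.34 in d/d libraries. Its d/d replicate 2 was at the control level, as for Plod1, and the others were below. It had the largest mean difference of the 10, with a log2 change of -0.54 (SE 0.23; limma adjusted p 0.922). There were 2.24 to 2.76 units of Pcolce for each unit of Bmp1 in controls and 1.72, 2.78 and 1.82 in d/d replicates 1, 2 and 3, so the ratio was below every control in d/d replicates 1 and 3.

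By control level per length the order was Serpinh1, Pcolce, Bmp1, Plod1, Plod3, P4ha1, P3h1, Adamts2, Plod2 and P4ha2, from 477 down to 13.1 FPKM. The first 3 were separated from each other and from the rest in every control. Control values of Plod1, Plod3 and P4ha1 overlapped with their neighbours, as did those of P3h1, Adamts2, Plod2 and P4ha2. Among all 12640 tested genes, Serpinh1 had a control mean above 98.9% and P4ha2 above 49.5%.

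Each d/d library was also left out in turn. Without d/d replicate 2 the median log2 change of the 10 genes was -0.57. Pcolce then passed the threshold (log2 change -0.88; limma adjusted p 0.0351; range over all settings 0.0351 to 0.9996), where 0.0958% of 12531 genes were called. Both remaining d/d libraries were below every control for 8 of the 10 genes, against 14.4% of genes tested, and Adamts2, P4ha2 and Serpinh1 had log2 changes of -0.82, -0.82 and -0.88 (limma adjusted p 0.0723, 0.0749 and 0.121). Without d/d replicate 1 or 3 the median was -0.11 or -0.16 and 0 of the 10 were called. Serpinh1 and Plod2 changed sign without d/d replicate 3 (0.044 and 0.060), P3h1 without d/d replicate 1 or 3 (0.012 and 0.047), and Plod2 also without f/f replicate 1 (0.048). Array quality weights were 3.74, 0.224 and 0.451 for d/d replicates 1, 2 and 3, so that d/d replicate 1 made up most of the d/d mean. With them the median log2 change of the 10 genes was -0.60, and Pcolce and Adamts2 were called (log2 change -0.75 and -0.68; limma adjusted p 0.0470 and 0.0386), where 2.5% of all genes tested were called.

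**Figure D2:**
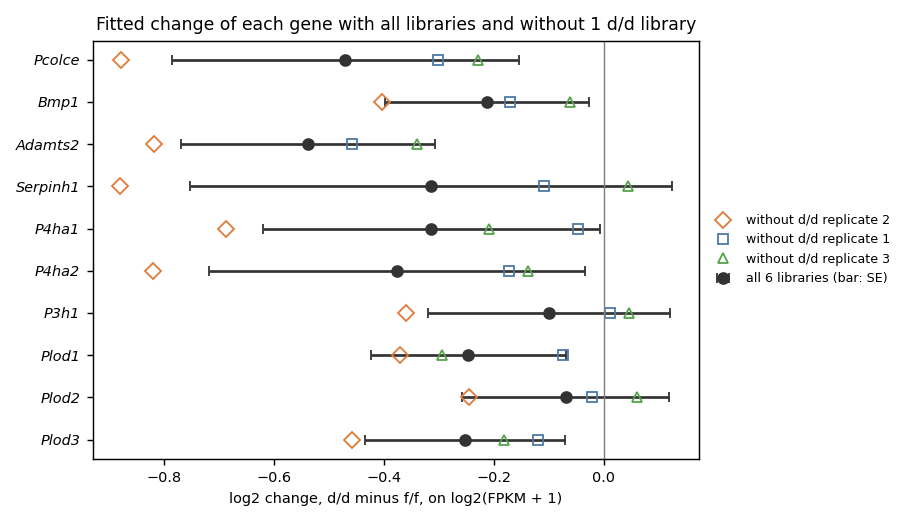
Fitted log2 change between d/d and f/f uteri on log2(FPKM + 1) (horizontal axis) for each gene, with all 6 libraries (filled circles, bars are SE) and without 1 d/d library (open symbols). Leaving out d/d replicate 2 moves every gene to lower values, to -0.88 for Pcolce and Serpinh1 and -0.25 for Plod2.

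The chains of the main substrates, type I and type III collagen, took the same order in d/d libraries but not among controls. Col1a1, which encodes the main chain of type I collagen, had 765, 677 and 750 FPKM in controls and 394, 984 and 361 in d/d replicates 1, 2 and 3. Col1a2, its partner chain, had 746, 641 and 727 in controls and 487, 916 and 401 in d/d libraries. Col3a1, the chain of type III collagen, had 1447, 1181 and 1420 in controls and 840, 1541 and 746 in d/d libraries. All 3 thus had d/d replicate 2 highest and d/d replicates 1 and 3 lowest. Among controls all 3 were lowest in f/f replicate 2, where Serpinh1, P4ha1 and P4ha2 were highest. Of the 7 fibrillar chains 0 were called in either direction, with a median log2 change of -0.32, and d/d replicates 1 and 3 were both below every control in 6 (14.4% of all genes tested). The full order, with d/d replicate 2 also above every control, held in 5 of the 7 (6.77% of all genes tested).

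Set against the summed FPKM of Col1a1, Col1a2 and Col3a1, part of the difference between libraries was no longer seen. Pcolce came to 3.24 to 3.92 units for every 100 units of these chains in controls and to 3.29, 3.69 and 3.38 in d/d replicates 1, 2 and 3, all inside the control range. P4ha1 and P4ha2 were also inside their control ranges in all 3 d/d libraries. Serpinh1 stood at 14.0 to 21.5 in controls and at 16.6, 24.2 and 15.3 in d/d libraries, above the controls only in replicate 2. Bmp1 stood at 1.42 to 1.505 in controls and at 1.91, 1.33 and 1.86 in d/d libraries, so in d/d replicates 1 and 3 more Bmp1 RNA was present for each unit of collagen RNA. Plod2 behaved alike, at 0.475 to 0.642 in controls and 0.823, 0.572 and 0.831 in d/d libraries, and P3h1 at 0.561 to 0.764 and 0.839, 0.721 and 0.909. Plod1 stood at 0.983 to 1.13 in controls and at 1.09, 0.837 and 1.71 in d/d libraries, on both sides of the controls, and Plod3 at 0.882 to 1.04 and 1.07, 0.877 and 1.34. Adamts2 stood at 0.550 to 0.691 in controls and at 0.582, 0.498 and 0.553 in d/d libraries, below the controls in replicate 2.

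**Figure D3:**
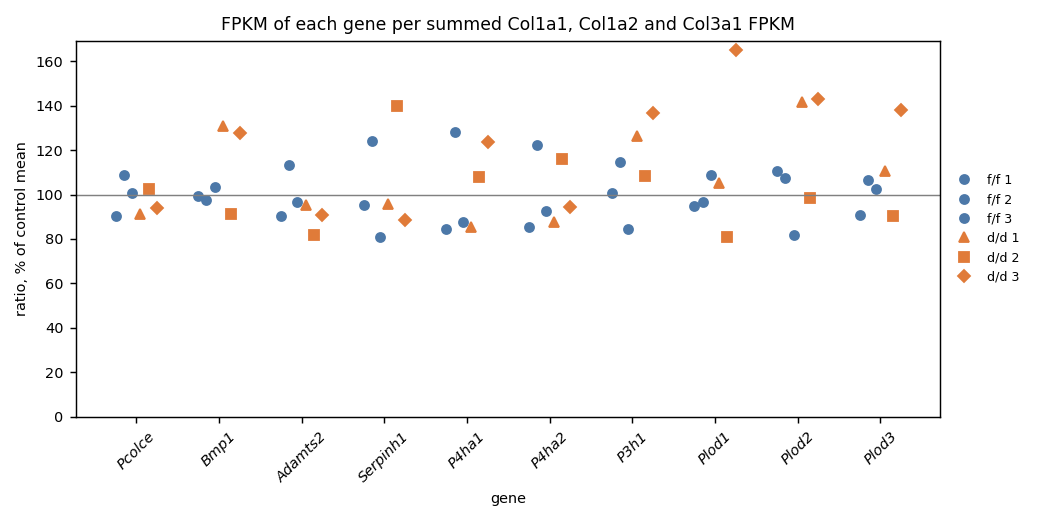
FPKM of each gene divided by the summed FPKM of Col1a1, Col1a2 and Col3a1 in the same library, as a percentage of the control mean (vertical axis), with blue circles for f/f replicates 1 to 3 from left to right and orange symbols for d/d replicates. For Pcolce, P4ha1 and P4ha2 all 3 d/d libraries fall within the control range, and for Bmp1 and Plod3 none does.

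Other genes of the pathway were counted from lists of known function. Among 10 tested genes for other collagen-modifying enzymes and their ER partners, 0 were called higher or lower and the median log2 change was -0.06. In this list d/d replicate 2 was above every control in 7 genes (38.4% of all genes tested), and d/d replicates 1 and 3 were both below in 5 (14.4%). Of 5 tested genes for other procollagen proteinases and enhancers 0 were called (median -0.16), and Pcolce2, a relative of Pcolce, had 8.27, 5.82 and 8.70 FPKM in controls and 6.89, 4.34 and 4.59 in d/d libraries, with no high value in replicate 2. Of 5 procollagen export genes 0 were called (median -0.04), and they stayed near the controls, with list medians of -0.09, 0.04 and 0.02 in d/d replicates 1, 2 and 3. Of 4 tested lysyl oxidase genes, which cross-link collagen outside the cell, 0 were called (median -0.24). Lox had 31.9, 25.4 and 35.0 FPKM in controls and 29.9, 23.0 and 33.6 in d/d libraries, and was lowest where Serpinh1 was highest. Loxl2 had 20.98, 24.1 and 25.3 FPKM in controls and 16.9, 27.4 and 14.0 in d/d libraries. It was the 1 gene of the 4 with d/d replicate 2 above and d/d replicates 1 and 3 below every control (6.77% of all genes tested). Loxl1 had 23.3, 31.5 and 28.7 in controls and 15.3, 25.5 and 11.4 in d/d libraries, a log2 change of -0.71 (SE 0.27).

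ER chaperone genes, which serve all secreted proteins, followed the collagen enzymes. Of 8 tested, 0 were called (median log2 change -0.06), all 8 were above every control in d/d replicate 2 (38.4% of all genes tested), and 7 were below every control in both other d/d libraries (14.4%). Their list medians relative to the control mean were -0.45, 0.72 and -0.62 in d/d replicates 1, 2 and 3. Hspa5, the main Hsp70 chaperone of the ER, had 173, 222 and 152 FPKM in controls and 126, 264 and 109 in d/d libraries. Among controls alone, replicate 2 was the highest for all 8 chaperones, against 35.1% of all genes tested. The same held for all 10 heat shock factor targets and all 8 smooth muscle markers. Among the 10 collagen processing genes it held for 4, Serpinh1, P4ha1, P4ha2 and Adamts2, near the share of all genes. After median centring or upper-quartile scaling it held for 3, without Adamts2. Serpinh1 is also a heat shock gene, and of 10 heat shock factor targets 0 were called (median -0.06). Their list medians were -0.19, 0.31 and -0.16 in d/d replicates 1, 2 and 3. In f/f replicates 1, 2 and 3 they were -0.13, 0.26 and -0.12, so f/f replicate 2 came near d/d replicate 2.

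P4ha1, P4ha2 and Plod2 are known targets of hypoxia-inducible factors, whose other targets were mixed in order. Of 13 tested, 0 were called (median log2 change 0.05), and the list medians were -0.01, -0.10 and 0.27 in d/d replicates 1, 2 and 3. In d/d replicate 1, 5 of the 13 lay below every control and 5 above (31.9% and 34.2% of all genes tested). In d/d replicate 2, 7 lay below and 2 above (33.1% and 38.4%). In d/d replicate 3, 4 lay below and 7 above (25.5% and 34.0%). Pdk1, a kinase that restrains pyruvate oxidation, had 8.07, 7.22 and 7.67 FPKM in controls and 12.1, 7.11 and 12.5 in d/d libraries, high where P4ha1 was low. Vegfa, the endothelial growth factor gene, had 59.9, 69.0 and 59.9 in controls and 53.0, 47.6 and 44.8 in d/d libraries, lower in all 3. Ldha, a lactate dehydrogenase gene, had 230.0, 229 and 195 FPKM in controls and 180.0, 347 and 181 in d/d libraries. Among controls Ldha was highest in f/f replicate 1, where P4ha1 was lowest. It was the 1 target of the 13 with d/d replicate 2 above and d/d replicates 1 and 3 below every control (6.77% of all genes tested). Pgk1, a glycolytic kinase gene, had 79.7, 84.9 and 66.4 FPKM in controls and 69.6, 123 and 65.1 in d/d libraries, high in d/d replicate 2 as well.

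Cell type markers were read beside these values, because in whole tissue fewer cells of a type and less RNA per cell cannot be told apart. In d/d replicate 2, 5 of the 7 markers of stromal fibroblasts, a cell type that makes collagen, lay below every control and 1 lay above. Of all genes tested, 33.1% lay below and 38.4% above there. In d/d replicate 1, 6 of these markers lay below and 1 above (31.9% and 34.2%). In d/d replicate 3, 4 of these markers lay below and 2 above (25.5% and 34.0%). Their list medians were -0.39, -0.45 and -0.37 in d/d replicates 1, 2 and 3 and -0.14 to 0.07 in controls, and their summed FPKM was 1646, 1295 and 1733 in d/d libraries and 1645 to 1840 in controls. Of 7 tested, 0 were called and all 7 had a mean change below 0. Mfap5, a microfibril gene of fibroblasts, had 68.0, 60.1 and 70.8 FPKM in controls and 51.5, 40.4 and 51.1 in d/d libraries. Dcn had 1066, 1033 and 1115 FPKM in controls and 1160, 646 and 1197 in d/d libraries, below every control only in replicate 2. Thy1 was above every control in d/d replicate 3, at 139. Lum, which encodes the collagen-binding proteoglycan lumican, was the marker above every control in d/d replicate 2. It had 169.6, 135 and 148 FPKM in controls and 115, 231 and 89.0 in d/d libraries. Within the d/d libraries this was the order of Serpinh1, but among controls Lum was lowest in f/f replicate 2, where Serpinh1 was highest. Proliferation genes had list medians of -1.09, 1.83 and -1.63 in d/d replicates 1, 2 and 3, the order of Serpinh1. In controls their medians were 0.78, -0.83 and 0.19, whereas Serpinh1 was highest in f/f replicate 2. The part of proliferation and of fibroblast numbers in the values of the collagen processing genes was not tested.

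**Figure D4:**
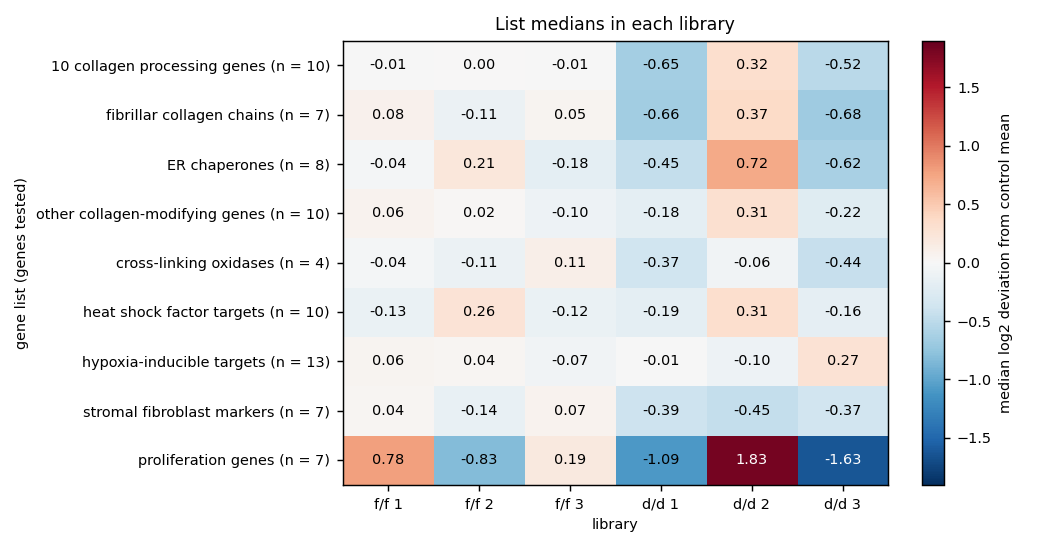
Median log2 deviation from the control mean (colour and printed value) of each gene list (rows) in each library (columns). The collagen processing genes, fibrillar collagen chains, ER chaperones and proliferation genes are low in d/d replicates 1 and 3 and high in d/d replicate 2, while stromal fibroblast markers are between -0.45 and -0.37 in all 3 d/d libraries.

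Summed FPKM of the smooth muscle markers was 4098 to 4712 in controls and 3820 to 4868 in d/d libraries, and for epithelium 594 to 694 and 675 to 766. For endothelium it was 244 to 274 in controls and 211 to 233 in d/d libraries, for mesothelium 56.8 to 71.1 and 55.6 to 66.1, and for leukocytes 22.6 to 39.3 and 23.5 to 33.9. The epithelial list median was 0.29, 0.23 and 0.20 in d/d replicates 1, 2 and 3 and -0.12 to 0.15 in controls, and 3 of 7 markers were higher in d/d libraries without overlap (6.12% of all genes tested). The endothelial median was -0.45, -0.17 and -0.19 in d/d libraries and -0.05 to 0.04 in controls, and 2 of 6 markers were lower without overlap (4.6% of all genes tested). The mesothelial median was -0.31, -0.33 and -0.57 in d/d libraries and -0.25 to 0.12 in controls, and 2 of 4 markers were lower without overlap (4.6%). For smooth muscle and leukocytes the d/d medians were -0.16 to 0.11 and -0.33 to 0.11, with 0 markers apart. For blood the sum was 851 to 5581 in controls and 709 to 1723 in d/d libraries. Markers of neighbouring tissues reached summed FPKM of at most 8.79 for fat, 2.26 for ovary, 6.67 for oviduct and 2.05 for cartilage and bone. For skeletal muscle the sum was 41.2 to 59.2, near that of mesothelium. Most of it was the actin gene Acta1, at 35.3 to 53.99 FPKM. Tnnt3 had 3.98, 4.72 and 3.92 FPKM in controls and 5.85, 2.80 and 4.78 in d/d libraries. Ckm was listed at 0.19 to 1.26, and the skeletal myosin gene Myh4 at 0 in every library. The part of these cell types in the values of the collagen processing genes was not tested.

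Over the 6 libraries, the log2 values of the 10 genes correlated with one another with a median Pearson r of 0.845 over 45 pairs, from 0.292 (Plod1 with Plod2) to 0.981 (Serpinh1 with P3h1). The 4 lowest values were all for pairs with Plod1. The genes outside the family most like its mean profile were Tpst1, which encodes a Golgi tyrosine sulphotransferase (r = 0.9989), the peptidase gene Thop1 (0.9987), Pycrl of proline synthesis (0.9965), the type VI collagen gene Col6a2 (0.9936) and Armcx2 (0.9922). Col6a2 had 322, 318 and 331 FPKM in controls and 178, 423 and 188 in d/d libraries. All these points share the same 6 libraries, including their depth, and no test is given.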

How the data were processed

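PolyA RNA of whole uterus was profiled in 3 Nat10 f/f and 3 Nat10 d/d libraries, grouped by their titles. Each deposited table holds 1 FPKM value per gene, which the authors scaled for gene length and depth. No header names the unit, which is read here from the range of the values and from Cufflinks being listed. HISAT2 2.2.1, Cufflinks 2.2.1 and build mm10 are named in the submitters' processing notes, without roles. Annotation, strand setting and gene filter are not given in the sources used here.

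Values were analysed as log2(FPKM + 1). Genes with at least 1 FPKM in at least 3 libraries (12640 of 20637) were fitted with limma 3.58.1 in R 4.3.3 (empirical Bayes with trend, group as the only term), and p-values were two-sided and adjusted by Benjamini-Hochberg over all of them. The fit was tested on simulated data. Joins, ratios and figures used Python 3.11.15, pandas 2.3.3, numpy 2.4.6 and matplotlib 3.10.9. Loci are from GENCODE release M21 (20558 identifiers matched). The members and lists were chosen with earlier results of these data known. Named were Nat10, the 10 members, 7 known partners, genes from among the 3 with the smallest p in each list, and the 5 genes most like the members. Ldha, Pgk1, Lum, Dcn, Thy1, Acta1, Tnnt3, Ckm and Myh4 were added after their values were seen. Alternatives were other scalings, filters, pseudocount, weights, a replicate block and leaving out each library.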

Additional observations from a re-analysis of the deposited data

How the results depend on the processing

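Absolute depth is unknown, so no counting interval stands beside the FPKM values. The number of genes called was 0 with a pseudocount of 0.1, no filter, a filter in every library, each of 3 scalings and no trend, with 604 to 886 genes at an unadjusted p under 0.05. Array quality weights, highest for d/d replicate 1 (3.74) and lowest for d/d replicate 2 (0.224), called 316 genes and 2 of the 10 members, Pcolce (log2 change -0.75) and Adamts2 (-0.68). Leaving out 1 library gave 0 to 12 genes and 0 to 1 members, the higher counts without d/d replicate 2. The log2 change ranged from -0.25 to 0.060 for Plod2, -0.36 to 0.047 for P3h1 and -0.88 to 0.044 for Serpinh1 when 1 library was left out, and the sign of the other 7 members did not change under any setting. The cause was not tested.

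Same-numbered libraries did not pair: their deviations from the group means correlated at -0.341, -0.0287 and 0.1. When replicate number entered the fit as a block, 0 genes and 0 members were called (726 genes at an unadjusted p under 0.05), and the median change of the members was -0.28.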
